A study of Drosophila melanogaster with 2 samples.

Results

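The 8 genes CCT1 to CCT8 of Drosophila melanogaster, chosen by name, encode the subunits of the cytosolic chaperonin. They are 8 of 13968 protein-coding genes on the nuclear chromosomes of the Ensembl BDGP6 annotation, and all 8 names were found there. Chromatin immunoprecipitation sequencing (ChIP-seq) had mapped the homeodomain transcription factor Unc-4, a protein known from neurons, in whole embryos. The embryos came from the transgenic strain unc-4-GFP, which carries an insertion targeting unc-4 and makes an unc-4-eGFP fusion protein, and they were 6 to 18 h old. The study held 1 group of 2 biological replicates, and both carried the fusion. The descriptions give an anti-GFP antibody, while the antibody label reads unc-4. The labels do not say which cells made the fusion protein or how many embryos went into a replicate. The labels name a possible control, which was not analysed here, so no peak is set against embryos without the fusion. In whole embryos, more cells bound and stronger binding per cell cannot be told apart. Each of 4 thresholded peak lists was used: a pooled list of both replicates with 4899 nuclear peaks, a conservative pooled list with 4474, and the lists of replicate 1 with 3457 and replicate 2 with 2960. Signal is the authors' value per peak and can be set side by side only within a list. For that reason a percentile is also given, the percentage of nuclear peaks of the same list with the same or a lower signal. Read depth is unknown, since peak lists hold no reads.

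The chaperonin, called CCT or TRiC, is a barrel of stacked rings in which unfolded proteins are folded with energy from ATP. Each ring holds 1 copy of each of the 8 subunits, so all of them are needed for a working complex. Actin and tubulin are its best known clients, and prefoldin delivers them to it. The subunits are related in sequence but sit at fixed places. In yeast, CCT5, CCT2 and CCT4 are neighbours on the side of the ring that binds ATP strongly, CCT3, CCT6 and CCT8 are neighbours on the side that binds it weakly, and CCT1 and CCT7 join these sides.

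The sequence before the start of 5 of these genes is shown because it holds the 6-letter word TATCGA that all 8 promoters share. TATCGA lies inside the element bound by the promoter factor DREF in flies. Each stretch runs 5' to 3' on the strand of the gene, from 150 bases before the annotated transcript start to 20 bases after it, or from 250 before it for CCT7. Capitals mark TATCGA on either strand. Where 2 matches overlap, the capitals run on. The sequences are from the RefSeq Release 6 assembly, in dm6 coordinates.
CCT1, 3R:22491419-22491589, minus strand: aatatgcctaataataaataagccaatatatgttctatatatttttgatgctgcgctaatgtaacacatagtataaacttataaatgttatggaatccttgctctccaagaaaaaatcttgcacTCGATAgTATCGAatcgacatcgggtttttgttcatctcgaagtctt
CCT2, X:9089363-9089533, plus strand: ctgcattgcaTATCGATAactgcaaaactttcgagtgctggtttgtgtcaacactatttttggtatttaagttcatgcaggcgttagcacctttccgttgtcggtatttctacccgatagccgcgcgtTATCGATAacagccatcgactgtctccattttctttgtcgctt
CCT3, 3R:16647455-16647625, plus strand: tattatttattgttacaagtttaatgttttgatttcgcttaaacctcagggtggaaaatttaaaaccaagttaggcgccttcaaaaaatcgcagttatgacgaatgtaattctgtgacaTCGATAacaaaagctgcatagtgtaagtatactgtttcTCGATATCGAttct
CCT6, X:15746498-15746668, plus strand: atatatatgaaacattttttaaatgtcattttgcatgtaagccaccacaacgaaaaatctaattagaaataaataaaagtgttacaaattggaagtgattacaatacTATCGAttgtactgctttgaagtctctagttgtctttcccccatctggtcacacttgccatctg
CCT7, 3R:8801314-8801584, plus strand: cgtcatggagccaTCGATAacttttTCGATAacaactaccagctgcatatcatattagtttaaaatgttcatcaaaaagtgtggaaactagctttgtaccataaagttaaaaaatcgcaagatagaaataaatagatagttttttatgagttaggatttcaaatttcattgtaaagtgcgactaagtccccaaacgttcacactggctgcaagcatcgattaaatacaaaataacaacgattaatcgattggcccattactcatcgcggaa

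In these stretches, capitals lie close to the end of the line, which is just past the start, in CCT1, CCT2, CCT3 and CCT6. CCT7 has capitals only at its far left end, 237 and 225 bases before the start. CCT4, CCT5 and CCT8 also hold the word, at 39 bases before the start of CCT4, at 35 and 33 bases before the start of CCT5, where both matches overlap, and at 38 bases before that of CCT8. Their sequences are not shown.

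Every CCT gene had a summit near its start in the pooled list. All 8 had one in the gene or within 5 kb of it, against 57.1% of all coding genes. All 8 also had one within 1 kb of an annotated start of their own, against 35.9% of all coding genes, and 6 had one within 100 bp, against 22.4%. These counts describe 8 genes of known name, and no test of them was made. CCT1, with its summit 112 bp upstream, was just past 100 bp, and CCT8 was far from it at 512 bp. The lists of single replicates gave nearly the same counts at 5 kb and 1 kb, but the genes within 100 bp differed. These were CCT3, CCT4, CCT5 and CCT7 in replicate 1, and CCT1 to CCT5 in replicate 2. In replicate 1, all 8 genes had a summit within 5 kb (49.5% of coding genes), all 8 within 1 kb of their own start (29.2%) and 4 within 100 bp (17.9%). In replicate 2 these counts were 7 (46.1%), 7 (25.5%) and 5 (15.6%). In the conservative list they were 8 (54.8%), 7 (33.7%) and 5 (21.1%). The 1 gene missing at 1 kb was CCT6 both in replicate 2 and in the conservative list. Start peaks of 7 genes, all but CCT6, overlapped between the replicates by at least 1 bp, and 23.1% of coding genes had a start peak in both replicate lists, with no overlap asked for.

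The strength of the peak within 1 kb of the start differed widely among the 8 genes, and at CCT8 and CCT4 that peak lay at or beside the start of another gene. The pooled signal of the strongest peak within 1 kb of the own start ran from 57.7 at CCT6 to 572 at CCT1, a ratio of 9.92. By pooled signal the genes fell into a high set of CCT1, CCT8 and CCT7 between 507 and 572, a middle set of CCT2, CCT3 and CCT5 between 153 and 211, and a low pair of CCT4 and CCT6 below 100. The CCT8 value is that of a peak nearest to CG30349. In replicate 2 the high set stayed above the middle set, but without a wide gap. There CCT2 had a signal of 106 beside 129 at CCT1, while CCT5 had 51.7 and CCT3 44.5. The median of the 8 pooled values was 202. Over all 5015 coding genes with such a peak the median was 177, and the upper quartile was 3.81 times the lower one. Among the 8 CCT genes that quartile ratio was 3.75. The comparison changed with the list. The CCT ratio was above that of coding genes in replicate 1 (3.83 against 3.26) and in replicate 2 (2.87 against 2.34). In the conservative list it was below (2.97 against 3.72). All these CCT ratios take in the CCT8 peak, and none without it is given, so the direction may rest on that peak. No test was made of how the CCT genes differ from other coding genes in this spread. In the pooled list CCT1 stood at or above 92.1% of those 5015 genes, CCT8 at or above 89.9% and CCT7 at or above 88.8%. CCT4 reached 21.2% and CCT6 4.13%. The ratio of highest to lowest was 17.9 in replicate 1 alone, 5.78 among the 7 genes in replicate 2 alone and 6.73 among the 7 in the conservative list. CCT6, the lowest gene of the pooled list, was absent from the lists of replicate 2 and of the conservative kind.

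**Figure D1:**
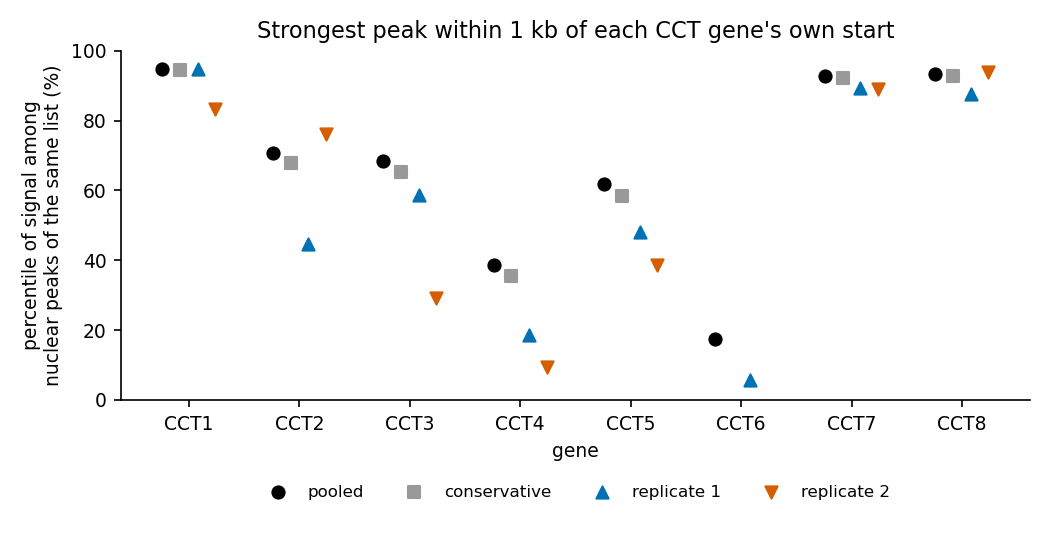
Percentile of the strongest peak within 1 kb of each gene's own start, among nuclear peaks of the same list, for the 4 thresholded lists (1 point per gene and list, no error bars). CCT1, CCT7 and CCT8 lie above 80 in all 4 lists, and CCT6 has a point in the pooled list (17.5) and in replicate 1 (5.76) alone.

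On the side of the ring that binds ATP strongly in yeast, CCT5 and CCT2 had peaks of middle strength. CCT5 (FBgn0010621, 2R:12174802-12177516, plus strand) encodes the epsilon subunit. Its pooled peak spanned 2R:12174673-12174863 with the summit 72 bp upstream of the start and a signal of 153, rank 1873 of 4899. The signal was 110 in replicate 1 (percentile 48.0) and 51.7 in replicate 2 (percentile 38.6). Its summit was the least steady of the 8, lying 67 bp upstream in replicate 1 and 6 bp downstream in replicate 2. CCT5 is the only member with a second annotated start, at 12175096, and all these summits were nearer to the first.

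CCT2 (FBgn0030086, X:9089513-9092826, plus strand), the beta subunit gene, had a pooled peak at X:9089283-9089543 with the summit 79 bp upstream and a signal of 211, rank 1438. Its percentile differed most among the 7 genes in both thresholded replicate lists. The signal was 100.9 in replicate 1, rank 1914 of 3457 and percentile 44.7, but 106 in replicate 2, rank 706 of 2960 and percentile 76.2. That gap of 31.5 percentile points is above the 90th percentile of such gaps over the 3226 coding genes with a start peak in both lists, which is 23.9 points. CCT2 also hosts the microRNA gene mir-13b-2 in its body (X:9091230-9091299), and every thresholded summit in its window lay upstream of the CCT2 start.

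CCT4 (FBgn0032444, 2L:12690336-12692934, minus strand), the delta subunit gene, had the second lowest signal. Its pooled peak at 2L:12692671-12693186 had a signal of 85.0, rank 3004 and percentile 38.7, with the summit 5 bp downstream of the start. The signal was 56.5 in replicate 1 (percentile 18.6) and 30.2 in replicate 2 (percentile 9.53), where its global irreproducible discovery rate of 0.00936 was close to the limit of 0.01 given with CCT6. Another coding gene, CG6153, starts 59 bp away on the opposite strand. In replicate 1 the summit lay 49 bp upstream of CCT4 and 10 bp upstream of CG6153, and in replicate 2 these distances were 54 and 5 bp. The pooled summit was therefore nearest to CCT4, while both replicate summits were nearest to CG6153. The pooled list held a further summit 209 bp upstream of CCT4, with a signal of 8.92 and nearest to CG6153. A peak between starts 59 bp apart cannot be given to either gene.

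CCT3, CCT6 and CCT8 form the side that binds ATP weakly in yeast. CCT3 (FBgn0015019, 3R:16647605-16649978, plus strand), the gamma subunit gene, had its pooled summit 4 bp downstream of the start, in a peak at 3R:16647437-16647715 with a signal of 193 and rank 1552. The summit was at the same base in replicate 1 and 6 bp further on in replicate 2. The signal was 149 in replicate 1 (percentile 58.8) and 44.5 in replicate 2 (percentile 29.2), so CCT3 stood lower in replicate 2 where CCT2 stood higher. Its gap of 29.6 percentile points is also above the 90th percentile over coding genes. A second summit lay 203 bp downstream in the conservative list (signal 84.7) and 211 bp downstream in replicate 2 (signal 25.5), and neither the pooled list nor replicate 1 had it.

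CCT6 (FBgn0027329, X:15746648-15748971, plus strand), the zeta subunit gene, had the weakest start peak in the pooled list and in replicate 1. In the ranked list of replicate 2 it stood beside CCT4, with signals of 30.3 and 30.2. The pooled peak at X:15746291-15746806 had a signal of 57.7, rank 4045 and percentile 17.5, with its summit 99 bp upstream. A second pooled summit, downstream of the start, had a signal of 28.7. In replicate 1 the summit lay 145 bp upstream with a signal of 25.3. The irreproducible discovery rate (IDR) estimates the share of peaks at a given rank or above that would not repeat. The lowest score in each thresholded list was 830, which on the IDR score scale stands for a global IDR of 0.01. The IDR at CCT6 was 0.00843 in the pooled ranked list and 0.00740 in that of replicate 1, just inside. It was 0.0125 in the ranked list of replicate 2, and 0.0252 in the ranked list of the conservative kind, both outside. A copy of the transposable element jockey2 lies at X:15746343-15746494, from 305 to 154 bp upstream of the start, within the span of the pooled peak. Its part in the result was not tested. The strongest peak of the CCT6 window was at the next gene, Mvd, which encodes mevalonate diphosphate decarboxylase (signal 80.7, 50 bp upstream of Mvd).

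CCT8 (FBgn0284436, 2R:8904844-8906990, minus strand), the theta subunit gene, was the exception in position. The strongest peak within 1 kb of its start, at 2R:8907292-8907701, had a signal of 522 and rank 322, and its summit lay 512 bp upstream of CCT8. The same summit lay 16 bp upstream of CG30349, a gene that starts 528 bp away on the opposite strand. The signal was 338 in replicate 1 (percentile 87.7) and 174 in replicate 2 (percentile 93.8), with summits 513 and 535 bp from the start of CCT8. No summit lay within 100 bp of the CCT8 start in any of the 4 thresholded or the 4 ranked lists. In all 4 thresholded lists the nearest start was that of CG30349, so by the nearest start CCT8 had no peak of its own. Such a case is not rare: of 5015 coding genes with a pooled summit within 1 kb, the strongest was nearest to another gene's start for 32.9%. Among the CCT genes it was so for CCT8 alone in the pooled list.

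CCT1 and CCT7, which join both sides, had strong peaks at their own starts. CCT1 (FBgn0003676, 3R:22489105-22491439, minus strand), the alpha subunit gene, had its pooled peak at 3R:22491351-22491759 with a signal of 572 and rank 249. The signal was 453 in replicate 1 (rank 181) and 129 in replicate 2 (rank 495), at percentiles of 94.8 and 83.3. The summit lay 112 bp upstream in replicate 1 and 89 bp upstream in replicate 2. CCT7 (FBgn0037632, 3R:8801564-8806234, plus strand), the eta subunit gene, had its pooled peak at 3R:8801242-8801681 with a signal of 507, rank 356 and the summit 69 bp upstream. Its percentile moved least among the 7 genes in both thresholded replicate lists, with a signal of 360 in replicate 1 and 147 in replicate 2, at percentiles of 89.4 and 89.0. The CCT7 window held no other pooled summit.

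In the ranked lists, where all 8 had a value, the Spearman coefficient of signal was 0.786 over 8 genes, given as a description with no test. CCT1, CCT7 and CCT8 took the first 3 places in both replicates, and CCT4 and CCT6 the last 2. CCT2 was 6th in replicate 1 and 4th in replicate 2, and CCT3 was 4th and 6th. Percentiles within the far longer ranked lists moved otherwise: the widest gap was at CCT6, at percentiles of 66.2 and 92.2, that of CCT2 was 7.66 points, and the narrowest was 0.227 at CCT1, with 1.05 at CCT7. The order also changed within the first 3 places: CCT1 was 1st and 3rd, and CCT8 3rd and 1st. For the 7 genes in both thresholded lists, the median gap between replicate percentiles was 9.41 points, against 7.54 points over 3226 coding genes. The median gap between their replicate summits was 22.0 bp, against 21.0 bp over those genes.

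**Figure D2:**
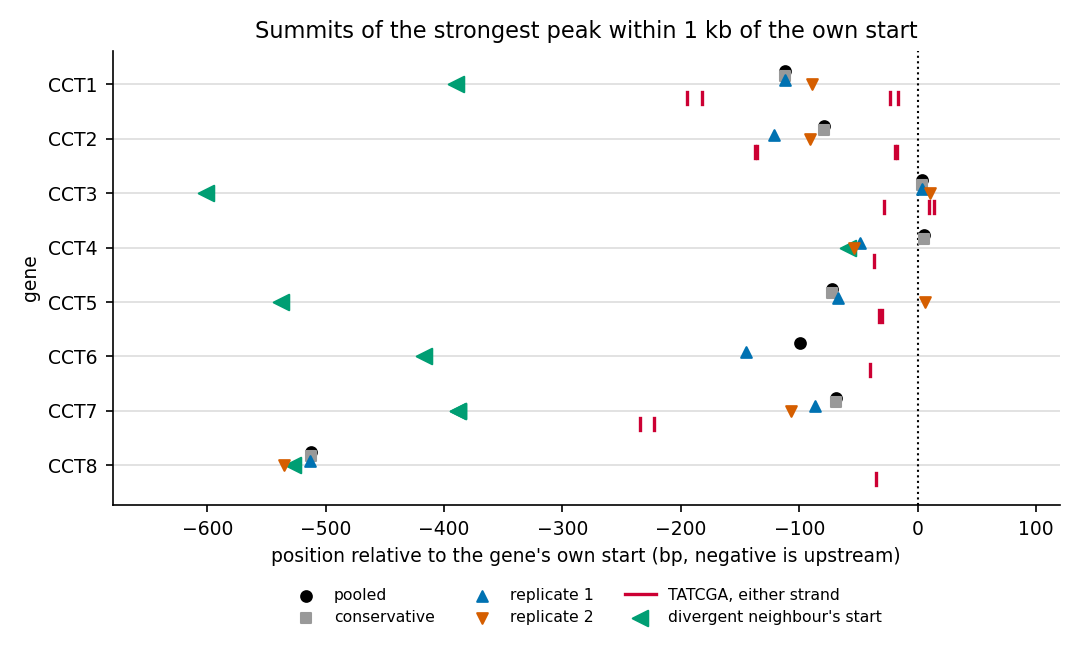
Position of the summit of the strongest peak within 1 kb of each gene's own start (horizontal axis, bp, 0 at the start) in the 4 thresholded lists, with the start of the divergent neighbour and each TATCGA of the 250 bases before to 50 after the start. The CCT8 summits lie at its neighbour's start, 512 to 535 bp upstream, while those of the other genes lie between 145 bp upstream and 10 bp downstream.

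Most CCT genes start beside a gene that runs the other way. A coding gene on the opposite strand started within 1 kb upstream for 7 of the 8 genes (87.5%), and for 33.3% of all coding genes. CCT2 was the exception, and CG6999, which runs in its own direction, lies upstream of it. The distances between starts were 59 bp at CCT4 (CG6153), 388 bp at CCT7 (Pif1A and Pif1B, which share a start), 390 bp at CCT1 (tHMG1), 417 bp at CCT6 (CG8944), 528 bp at CCT8 (CG30349), 538 bp at CCT5 (Oda, the gene of ornithine decarboxylase antizyme) and 601 bp at CCT3 (CG10324). Only CG6153 and CG30349 had a pooled summit within 100 bp of their own start. At CCT1, CCT3, CCT5, CCT6 and CCT7 the summit was on the side of the CCT gene, between 278 and 605 bp from the neighbour's start.

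The windows of 5 kb also took in peaks that belong to the starts of other genes. They held 25 pooled summits in all, of which 10 lay within 1 kb of the CCT gene's own start and 8 were nearest to it. The strongest peak of the window lay within 1 kb of the own start for 4 genes in the pooled list, CCT1, CCT5, CCT7 and CCT8. In replicate 1 it did so for CCT6 and not for CCT8, and in replicate 2 for CCT2 as well as the 4 pooled genes. The CCT8 peak counted here was nearest to CG30349. No share of all coding genes is given beside these counts. At CCT1, a peak with a signal of 289 lay at Pfdn5, which encodes a subunit of prefoldin and starts 4400 bp from CCT1 on the opposite strand. A weaker one lay at tHMG2 (71.2). At CCT2, the strongest was at CG32708 (304), 3601 bp upstream, and another was at CG32706 (99.3). At CCT3, peaks at CG14907 (213) and Mettl4 (178) stood beside the 193 of CCT3, and a weaker one lay at Arl6IP1 (79.7). At CCT4, the peak at PICK1 (265) lay on the base of its start and was higher than that of CCT4. At CCT5 the other summit was nearest to CG8860, 70 bp upstream of it. At CCT8, peaks at Ggamma1 (506), which encodes a G protein gamma subunit, and CG13751 (485) stood beside the 522 at CG30349. In replicate 1 both were higher, at 366 and 350 against 338.

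**Figure D3:**
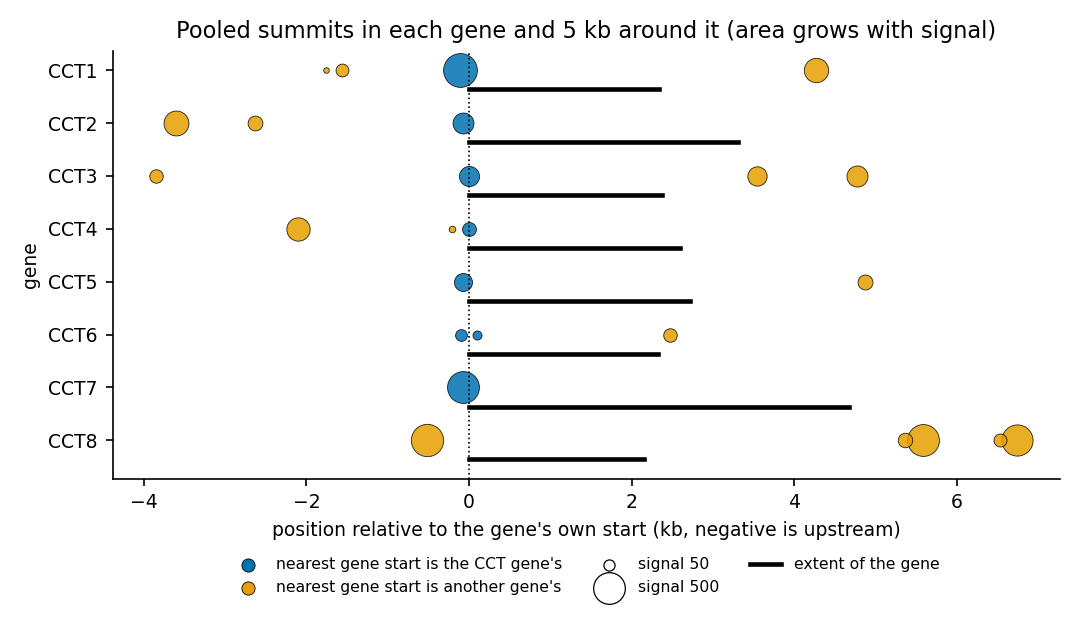
All 25 pooled summits in each CCT gene and 5 kb on either side, by distance from the gene's own start (kb), with the area of a point growing with its signal and a bar for the extent of the gene. CCT7 has a single summit, and the 5 summits in the CCT8 window are all nearest to other genes.

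The promoters shared 1 short word more than any other searched. In the 250 bases before to 50 after the gene's start, TATCGA was present on either strand in 8 of 8 CCT genes, in 27.7% of all coding promoters and in 52.3% of the 5015 with a pooled start peak. The longer element TATCGATA, which contains TATCGA on both strands, was present in 2, CCT2 and CCT5, beside 9.36% of all coding promoters and 22.6% of those with a pooled start peak. TAATTA, the core of many homeodomain sites, was present in CCT3, CCT5 and CCT6 (20.5% and 21.7% in the same order). TATAAA, the letters of the TATA box, was present in CCT1, CCT3 and CCT5 (45.9% and 44.8%). Its matches began 79 and 71 bases before the start of CCT1, 188 before that of CCT3 and 180 before that of CCT5. GGTCACAC, part of a core promoter element of fly housekeeping genes, was present in CCT4 and CCT6 (7.70% and 13.3%). GAANNTTC, a pair of heat shock element units, was present in CCT2 and CCT8 (9.41% and 8.67%). GAGAGA (12.3% and 9.93%) and CACGTG (4.23% and 5.34%) were present in none. Words were searched on both strands, and TATCGA counts include those inside TATCGATA. Some TATCGA matches also lie in the promoter of a divergent neighbour. The 1 match of CCT4 lies 25 bases before CG6153. Those of CCT7 lie 168 and 156 bases before Pif1A and Pif1B, nearer to that start than to CCT7. Of the 4 matches of CCT1, 2 are also in the promoter of tHMG1. A match shared in this way cannot be given to either gene. A match is a description of these letters and not a bound site.

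TATCGA lay within 50 bp of the pooled summit at 3 of the 8 genes, a share close to that of all promoter summits. Every promoter match but that of CCT8 lay inside the gene's pooled peak. These peaks were 191 to 516 bp wide and no share of all coding promoters is given, so this cannot be called high or low. Within 60 bases before the start it was present in 7 of 8 CCT genes, all but CCT7, in 14.6% of coding genes and in 32.6% of those with a pooled start peak. The width of 60 bases was chosen after the positions had been seen. Within 50 bp of the summit it was present in CCT3, CCT4 and CCT5 alone, and in 34.5% of the 4424 pooled summits within 1 kb of a coding start. At CCT1 the nearest match began 73 bp from the summit, at CCT2 57 bp and at CCT6 56 bp. CCT8 and CCT7 went opposite ways. CCT8 held TATCGA 38 bases before its start and had no summit within 100 bp, whereas CG30349, where the summit lay, had none in its promoter. CCT7 held none within 60 bases and had one of the highest signals. Of the other divergent neighbours, CG10324 held 4 matches in its promoter, tHMG1, Pif1A and Pif1B 2 each, and Oda and CG8944 none. These had no pooled summit within 100 bp of their starts. CG6153 held 1 match and had such a summit. Over all coding genes, 62.4% of the 2034 with TATCGA in those 60 bases had a pooled summit within 100 bp, against 15.6% of the 11934 without. The median signal of coding genes with a start peak was 106 with no match in the promoter, 195 with 1, 266 with 2 and 363 with 3 or more. Among the CCT genes, CCT1 and CCT2 held 4 each with signals of 572 and 211, and CCT3 held 3 with 193. CCT5 and CCT7 held 2 each with 153 and 507. CCT4, CCT6 and CCT8 held 1 each with 85.0, 57.7 and 522, and the CCT8 value is that of the peak at CG30349. A link between the number of matches and the signal was not tested.

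Among partners and clients of the chaperonin, some genes of each list had a start peak. Of the 6 prefoldin genes, 4 had a pooled summit within 1 kb of their own start. These were Pfdn1 (signal 453, summit 17 bp upstream), mgr (352), Pfdn5 (289, 30 bp upstream) and Pfdn6 (78.2), and the summits at mgr and Pfdn6 were nearest to Irbp and Su(z)12. Pfdn2 had no summit within 5 kb. Of 6 actin genes, 2 had one, Act42A (141) and Act5C (89.6), which encode the cytoplasmic actins, while Act57B and Act79B, muscle actin genes, were among the 4 without a summit within 5 kb. Of 10 tubulin genes, 2 had one, alphaTub84B (84.1, 21 bp downstream) and betaTub56D (235), whose summit 901 bp upstream was nearest to CG7744. The tubulin genes alphaTub67C and alphaTub84D had none within 5 kb. Of 5 tubulin folding cofactor genes, 3 had one, Tbce (140), Tbcd (85.1, nearest to CG11723) and Tbca (66.0), and Tbcb and Tbcc had none within 5 kb. Of fzy and fzr, activators of the anaphase-promoting complex whose proteins are known clients, fzy had one (84.8, nearest to cni). Of the 4 Hsp60 genes of the related mitochondrial chaperonin, 1 had one, Hsp60A (364), and Hsp60B and Hsp60C had none within 5 kb. These counts stand beside 35.9% of all coding genes, and no difference between lists was tested.

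The 20S core of the proteasome, another complex of fixed subunits, is set beside the CCT genes. Of its 14 genes, 11 had a pooled summit within 1 kb of their own start, and 10 had one within 100 bp, beside 35.9% and 22.4% of all coding genes. Their signals ran from 71.0 to 1158, the latter at Prosalpha7, a ratio of 16.3, with a median of 192. Their quartile ratio of 3.47 lay below the 3.81 of all coding genes with a start peak in the pooled list. It was also below in the conservative list (3.47 against 3.72) and in replicate 2 (2.15 against 2.34). In replicate 1 it was above (3.66 against 3.26). Prosbeta2 (605), Prosbeta1 (598, nearest to Rrp42) and Prosbeta5 (399) followed Prosalpha7. The 4 prefoldin genes with a peak had a ratio of 5.79. Ratios of highest to lowest grow with the number of genes, so only quartile ratios are compared. That of the CCT genes was above that of the 20S core in the pooled list (3.75 against 3.47). It was also above in replicate 1 (3.83 against 3.66) and in replicate 2 (2.87 against 2.15). In the conservative list it was below (2.97 against 3.47). The CCT ratios take in the CCT8 peak, which is nearest to CG30349, as those of the 20S core take in that of Prosbeta1. No quartile ratio without the CCT8 peak is given, so whether the CCT genes would still be above is not known. None of these differences was tested.

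**Figure D4:**
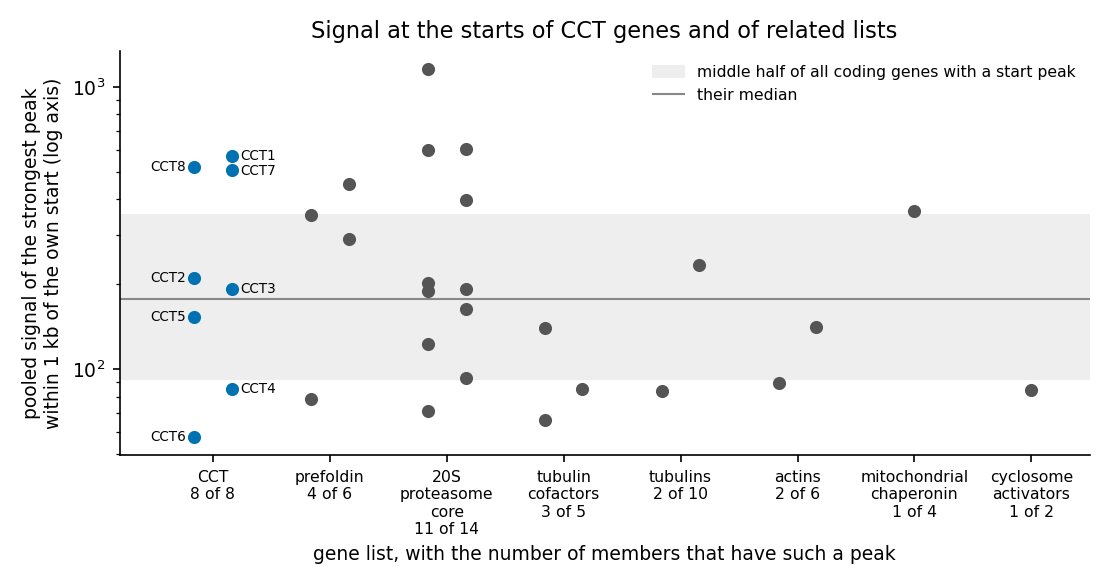
Pooled signal (log axis) of the strongest peak within 1 kb of the own start, 1 point per gene, for the CCT genes and 7 related lists, with the quartile range of all coding genes that have such a peak as a grey band from 92.4 to 352. The CCT genes run from below the band (CCT4 and CCT6) to above it (CCT1, CCT7 and CCT8).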

How the data were processed

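ChIP-seq of Unc-4-eGFP was made on 2 replicates of 1 group. The deposited dm6 peak lists derive, per the deposited text descriptions, from replicate alignments and 1 further file whose role is not stated there. The sources used here name neither aligner nor peak caller. The authors deposited a signal per peak of unstated scale, a score in the thresholded lists that rises as the IDR falls, the -log10 of the global IDR in the ranked lists (column 12), and 1 other quantity, the summit offset. Columns past the 12th of the ranked lists, 16 of them in lists of the whole series, were not used. Depth is unknown, and no interval that needs it is given.

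Gene and transcript starts came from Ensembl release 115 (BDGP6.54) and sequence from RefSeq Release 6; all nuclear peaks end within its chromosomes. A peak counted for a gene when its summit lay in the gene or within 5 kb, or within 1 kb or 100 bp of any annotated start of the gene. Of several, the strongest was taken. Divergent neighbours are coding genes starting within 1 kb upstream on the other strand. Members and lists were chosen with earlier results of these data known, so no p-value is given. All members are named, and of each other list up to 4 with the highest start signal and up to 2 without a summit in the window. Protein sequences were not used here. Alternatives were the other lists, single replicates, the 500 strongest peaks, other windows, RefSeq genes, nearest-start assignment and peak intervals. Scripts (Python 3.11.15, numpy 2.4.6, scipy 1.17.1) were tested on simulated peaks and sequences.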

Additional observations from a re-analysis of the deposited data

How the results depend on the processing

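Counts of CCT genes with a summit kept within 1.5 times their value in the conservative list and the pooled ranked list, with RefSeq genes, with the gene's first base alone as start, with peak intervals in place of summits and with nearest-start assignment, which removed CCT8 alone (7 genes at 1 kb). Among the 500 nuclear peaks of highest signal, 3 genes kept a summit within 5 kb and 3 within 1 kb (CCT1, CCT7 and CCT8), 1 within 100 bp (CCT7), and highest over lowest signal was 1.13. Gene bodies alone held a summit in 3 genes. TATCGA within 50 bp of the summit was found in 3 genes in place of 8 promoters, and in the last 60 bases, a width chosen later, in 7. Leaving out a replicate gave 7 to 8 genes within 5 kb, 7 to 8 within 1 kb, 4 to 5 within 100 bp, and a signal ratio of 5.78 (replicate 2 alone) to 17.9 (replicate 1 alone). With 50% reciprocal overlap, 5 genes in place of 7 had overlapping start peaks. No share of all coding genes is given for the 500 strongest peaks, gene bodies alone or this overlap. Those counts therefore cannot be called high or low. Merging overlapping peaks lowered every CCT percentile, that of CCT2 from 70.7 to 64.9, of CCT4 from 38.7 to 30.0 and of CCT6 from 17.5 to 6.54. No paired analysis was possible because the study has 1 group and no result comes from a test. The cause of these changes was not tested.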
